A study of Homo sapiens with 6 samples.

Results

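The mixed-sign bins are the 100 Kb stretches of the T47D genome that did not keep to a single compartment while the cells were exposed to estradiol (E2). They were chosen by the signs of the E2 scores themselves: a bin on an autosome, scored in all 6 libraries, was taken when its scores at T1, T4, T16 and T24 were not all of the same sign, and bins in which T24 alone stood against T0, T1, T4 and T16 were left out. The rule found 956 bins of 26484, or 3.61% (95% Wilson interval 3.39 to 3.84%). Of the remaining autosomal bins, 24620 kept their sign from T0 to T24 (11383 in A and 13237 in B), 532 differed at T24 alone and 376 differed at T0 alone. Because the signs chose the bins, the counts of sign patterns below are a description and carry no test.

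T47D is a long-established line of luminal breast cancer cells that express the estrogen receptor. Parental T47D cells were deprived of hormone for 72 h and collected without E2 (T0) or 1, 4, 16 and 24 h after 100 nM E2 was given (T1, T4, T16 and T24). The sixth library came from a tamoxifen-resistant T47D line (TamR), labelled as untreated, for which the study's methods describe growth in medium with tamoxifen. Contacts were measured by TCC, a form of Hi-C with ligation on a solid surface, with 1 library per condition. Differences between conditions therefore lack a replicate check, and no p-value is given. The score of a bin is the first eigenvector of the interchromosomal contact matrix, printed here multiplied by 1000, and depth is unknown. Neighbouring bins are not independent, so the Wilson intervals, which cover counting error over bins, are too narrow. The scores hold no expression values, so the labelled cell type could not be checked against marker levels.

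Chromatin separates into compartment A, which is rich in genes and open, and compartment B, which is poorer in genes and more compact. In the contact map, regions of like compartment meet each other more often than regions of unlike compartment. A score above 0 places a bin in A and a score below 0 in B, and a bin close to 0 lies at the border between them. The estrogen receptor, once bound by E2, attaches to estrogen response elements (EREs), where a pair of half-sites faces each other across a short gap, and calls in coactivators or corepressors.

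Sequences that match this element exactly in the mixed-sign bins are shown because they are the DNA that the receptor is known to read. The motif searched was GGTCA followed by 3 bases and then the same half-site on the opposite strand (TGACC), which reads the same on both strands. It was present in 62 of 956 mixed-sign bins (6.49%, 5.09 to 8.23%) and in 7.26% of all scored autosomal bins, and in 8.95% of bins always in A and 5.85% of bins always in B. The mixed-sign bins thus held the motif at a share whose interval contained that of all bins. A first set stands in the longest regions described below, with half-sites in capitals and positions of the 29 bases in GRCh37, plus strand.
chr7:46387825-46387853, intergenic: tttctagaGGTCAccaTGACCttgaatta
chr7:46541513-46541541, intergenic: ggttctctGGTCAggaTGACCaaatctca
chr6:106076569-106076597, intron of LINC02836: tcctactaGGTCAtcaTGACCtgcaatca
chr9:111168498-111168526, intergenic: cacctacaGGTCActcTGACCcaatgaat

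A second set holds every such site in the 68 bins that changed at T4 and held the new compartment through T24, the earliest lasting switches among these bins. The first 6 lie in bins that went from A to B and the last 2 in bins that went from B to A.
chr11:36484407-36484435, untranslated exon sequence of PRR5L: actgtcctGGTCAaaaTGACCtaagggga
chr14:61785820-61785848, intron of PRKCH: accagtctGGTCAgtgTGACCacctttgc
chr15:52968510-52968538, intron of ATOSA: aaattgcaGGTCAtcaTGACCcattaatt
chr3:66314005-66314033, intron of SLC25A26: atttcagtGGTCAgaaTGACCcatgttgt
chr3:139032927-139032955, intron of MRPS22: attgtgagGGTCAaggTGACCccagagga
chr9:20643223-20643251, intergenic: gatagtgaGGTCAtttTGACCacatggat
chr3:129747389-129747417, intergenic: accataagGGTCAtaaTGACCcccgttcc
chr3:158169992-158170020, intron of RSRC1: tgtgtattGGTCAttcTGACCattgacaa
The half-sites are alike in all of them by the search, and the gap and the flanking bases vary. Whether the receptor was bound at any of them was not measured in these files.

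The signs at T0, T1, T4, T16 and T24 are written below as 5 letters in that order, so that AAABB is a bin in A until T4 and in B from T16. All 26 patterns that the rule allows were present. The most frequent was AAABB with 106 bins, followed by ABABB with 91, BAAAB with 90, BBBAB with 83 and BBABB with 81. The rarest were AABBA and ABBAA, with 5 bins each. A single change of compartment over the 5 libraries was seen in 220 bins, 2 changes in 468, 3 in 240 and 4 in 28.

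**Figure D1:**
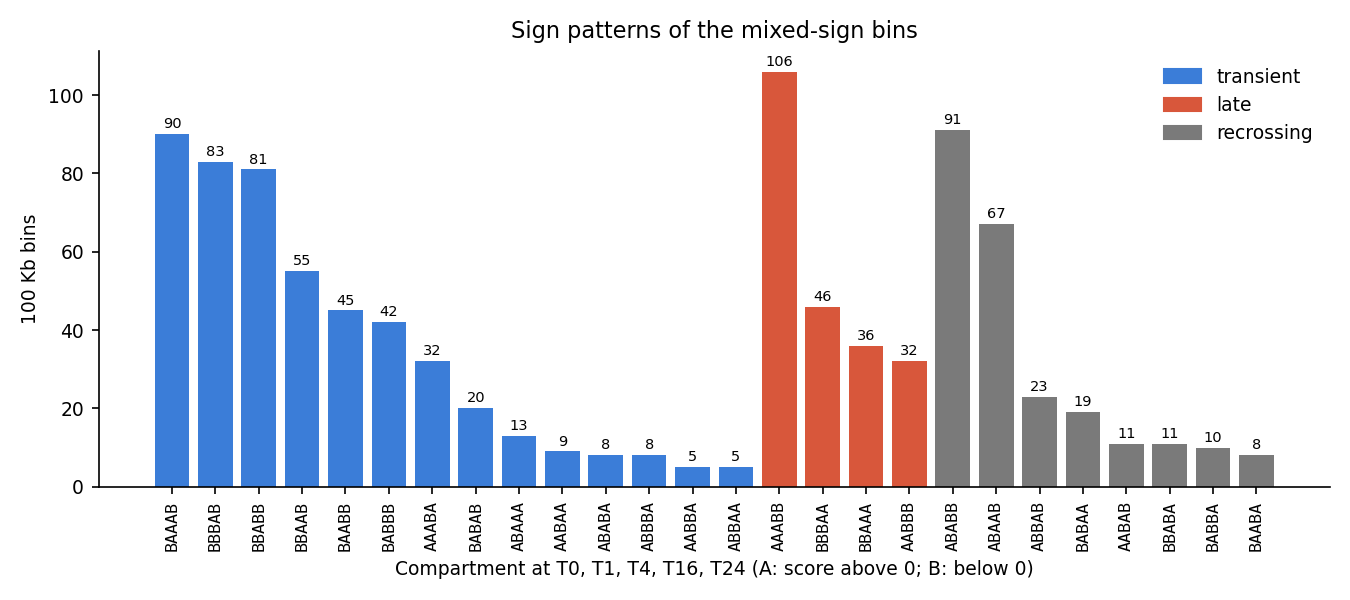
Number of 100 Kb bins (vertical axis) with each of the 26 sign patterns (horizontal axis, compartment at T0, T1, T4, T16 and T24), coloured by class. Transient patterns hold 496 bins, late patterns 220 and recrossing patterns 240, and the tallest bar is AAABB with 106 bins.

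The patterns were divided by where the bin stood at T24. In 496 bins (51.9%, 48.7 to 55.0%) the compartment of T0 had returned by T24, and these are called transient. In 220 bins (23.01%, 20.5 to 25.8%) a single change at T4 or T16 was held to T24, and these are called late. The other 240 bins (25.1%, 22.5 to 27.9%) ended in the other compartment after more than 1 change and are called recrossing. Among the transient bins, 55 differed from T0 at T1 alone, 90 at T4 alone, 115 at T16 alone, 208 at adjacent time points and 28 at T1 and T16 but not at T4. Among the late bins, 68 changed at T4 and 152 at T16.

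The classes started from different compartments. Of the transient bins, 80 of 496 were in A at T0 (16.1%, 13.2 to 19.6%), so that most of them visited A and went back to B. Of the late bins 138 of 220 were in A at T0 (62.7%, 56.2 to 68.8%), and of the recrossing bins 192 of 240 (80%, 74.5 to 84.6%). These directions rested on where 0 fell in each library. With the border at each library's median score, 46.2% of the transient, 49.4% of the late and 53.9% of the recrossing bins began in A. With every E2 library given the T0 scores by rank, the shares were 43.98%, 46.4% and 58.1%. Transient bins made up 52.0% of the mixed-sign bins with the median border and 52.3% with the matched ranks. The rule allows more transient patterns than late or recrossing ones, and it leaves out the 532 bins of T24 alone. The transient share is therefore not read as a result.

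The bins themselves depended on the border as well. With the median border, 1008 bins were of mixed sign and 306 of them were among the 956, which is 30.4% of the former and 32.0% of the latter. With the matched ranks 844 bins were shared, 88.3% of the 956, of which 605 kept the same 5-letter pattern. The medians over all scored autosomal bins lay at -0.593 in T0, -0.593 in T1, -0.437 in T4, -0.555 in T16 and -0.944 in T24. T4 and T24 therefore stood apart from the other parental libraries in opposite directions.

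The share of mixed-sign bins in A followed the same order of libraries. It was 42.9% in T0, 44.9% in T1, 67.3% in T4, 49.9% in T16 and 21.97% in T24. Among the 2785 autosomal bins with an absolute T0 score under 1, a set chosen without the E2 libraries, the shares were 48.9, 47.5, 54.1, 47.5 and 33.4%. Over all autosomal bins they were 46.9, 46.9, 47.7, 47.03 and 44.8%. T4 was highest and T24 lowest in all 3 sets, and a change of the cells between these times and a difference between single libraries cannot be told apart.

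Movement at each step of the time course showed the same. From T0 to T1, 215 mixed-sign bins went from A to B and 234 from B to A. From T1 to T4, 148 went from A to B and 362 from B to A, and from T4 to T16 the balance turned to 382 from A to B and 216 from B to A. From T16 to T24, 349 went from A to B and 82 from B to A. Over all scored autosomal bins, 423 went from A to B and 402 from B to A from T0 to T1. From T16 to T24 these were 777 and 186. At the steps from T1 to T4 and from T4 to T16 the counts are the same over all bins, because the rule takes every bin that crosses there. Over all 26484 bins, the sign differed from that of T0 in 3.12% (T1), 3.00% (T4), 3.80% (T16) and 5.17% (T24). The rule used these contrasts, so the counts in the mixed-sign bins are not read against them.

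The scores of mixed-sign bins were close to 0 throughout. From T0 to T24 their medians were -0.139, -0.0656, 0.176, -0.00301 and -0.496. The median absolute T0 score was 0.546 in the mixed-sign bins and 5.26 in the bins that never changed. At T0, 447 of the 956 lay within 0.5 of the border (46.8%), 334 between 0.5 and 1, 162 between 1 and 2, and 13 farther out. Seen from the other side, mixed-sign bins made up 33.4% of all bins within 0.5 of the border and 0.0621% of those beyond 2.

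How far a bin went past the border on both sides is given here as the crossing depth, the smaller of its highest E2 score and the size of its lowest E2 score. The median depth was 0.267 (quartiles 0.138 and 0.437, highest 1.78). A depth over 0.5 was reached by 184 bins and a depth over 1 by 13. The shallowest bin inside the rule had a depth of 0.00160, and the unchanged bin nearest to the border had a smallest absolute E2 score of 7.71e-05. The median was 0.312 in late, 0.247 in transient and 0.266 in recrossing bins. The span from the lowest to the highest E2 score had a median of 1.14 in the mixed-sign bins and 0.864 in the unchanged bins.

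The late bins are described with T4 and T16 crossings pooled, and their signs chose them, so the course of the medians is no finding. In the 138 late bins that began in A, the median scores from T0 to T24 were 0.542, 0.236, 0.258, -0.223 and -0.577. In the 82 late bins that began in B they were -0.821, -0.352, -0.0449, 0.426 and 0.526. In the 36 bins of these that crossed at T4 the median was 0.596 at T16 and 0.503 at T24. Transient bins that began in B went from a median of -0.516 at T0 over -0.0444, 0.146 and 0.0709 to -0.708 at T24, which was below the level at T0.

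**Figure D2:**
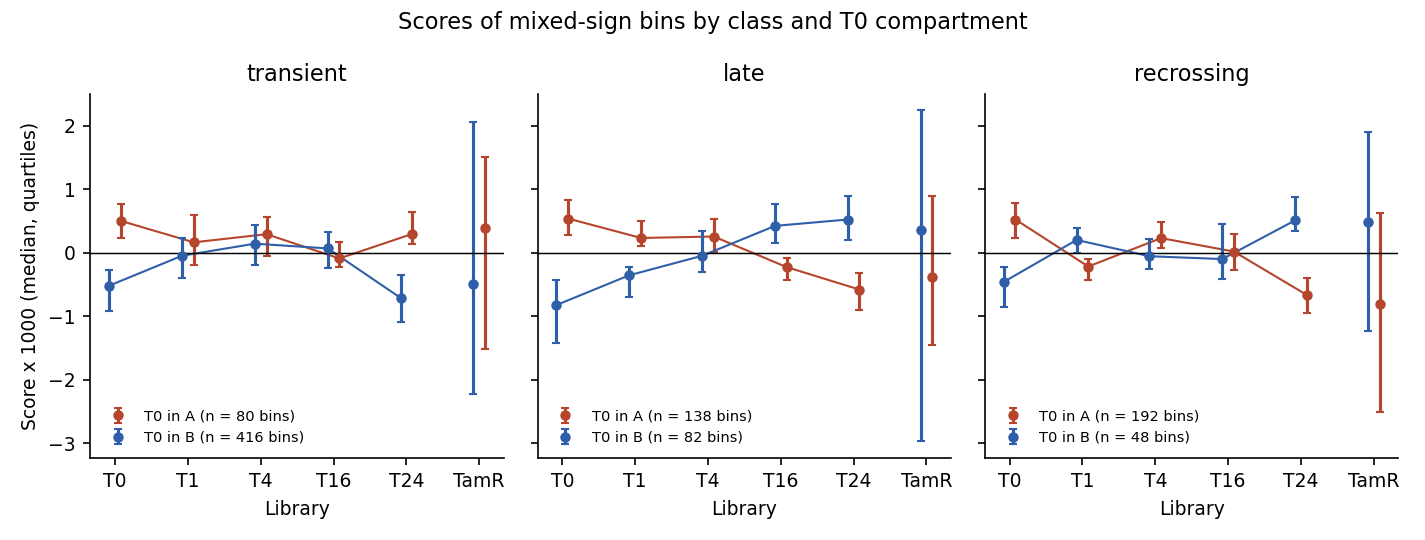
Median score multiplied by 1000 (vertical axis; bars are quartiles over bins) in each of the 6 libraries for transient, late and recrossing bins, split by T0 compartment. The medians of late bins from B are -0.821 at T0 and 0.526 at T24, and in TamR the quartiles of every group span both compartments.

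The size of each change was set beside the same difference in bins that never changed compartment. For T1 alone the median absolute difference of T1 from the mean of the other parental libraries was 0.664, against 0.269 in unchanged bins, and 13 of 55 bins exceeded the 95th percentile of unchanged bins (23.6%; 5.19% of all bins did). For T4 alone the median was 0.831 against 0.294, with 35 of 90 above that percentile (38.9%; 5.49% of all bins). For T16 alone it was 0.876 against 0.288, with 54 of 115 above it (46.96%; 5.44% of all bins). The rule fixes that these differences cross 0, so nothing is read from their excess over the unchanged bins.

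The late groups are described in the same way, with the changed libraries averaged on one side and the others on the other. Bins late from T4 had a median absolute difference of 0.900 against 0.296 in unchanged bins, and 33 of 68 were above the 95th percentile (48.5%; 5.65% of all bins). Bins late from T16 had a median of 0.915 against 0.363, and 47 of 152 were above it (30.9%; 5.66% of all bins). In each of these 5 groups the majority of bins stayed below the 95th percentile of the unchanged bins.

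The bins beside a late bin shifted the same way. These neighbours took part in the choice only where they were mixed-sign bins too. Around bins late from T16 that began in A, the median difference between T16 and T24 and the earlier libraries was -0.88 at the bin, -0.58 and -0.68 at 100 Kb on either side, and -0.19 and -0.29 at 1000 Kb. All bins with a T0 score between 0 and 1 had a median of -0.35 in the same contrast, and all autosomal bins had -0.0249, so the values at 1000 Kb lay between them.

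Around bins late from T16 that began in B, the difference was 1.08 at the bin, 0.79 and 0.92 at 100 Kb, and 0.46 at 1000 Kb on either side, against -0.30 for all bins with a T0 score between -1 and 0. The late bins from B had a median T0 score of -0.985 in this group (quartiles -1.49 and -0.628), so that many of them lay outside that range, and the median over all autosomal bins was -0.0249. Around the 32 bins that left A at T16 alone, the difference was -0.85 at the bin and -0.11 and -0.17 at 100 Kb. All bins with a T0 score between 0 and 1 had a median of 0.0573 in this contrast. The T16-alone and late values are therefore not compared directly. The 83 bins that left B at T16 alone had 0.88 at the bin and 0.44 and 0.48 at 100 Kb. All bins with a T0 score between -1 and 0 had 0.0598.

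**Figure D3:**
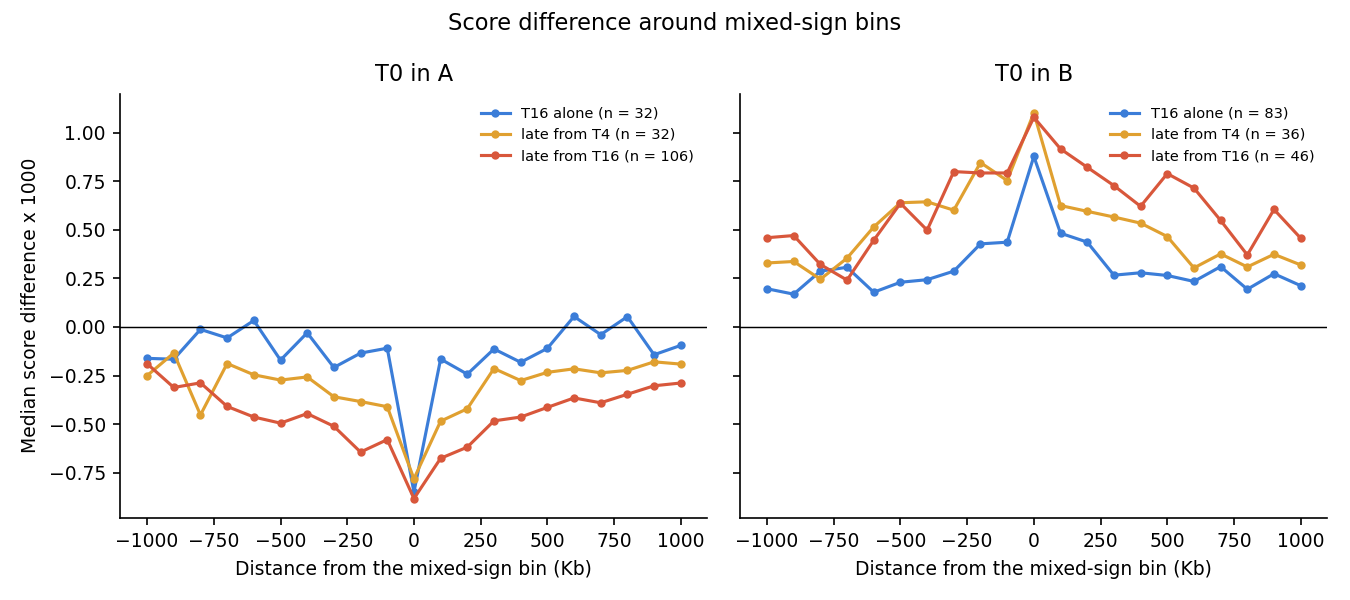
Median score difference multiplied by 1000 (vertical axis) between the changed libraries of a group and the other parental libraries, by distance from the mixed-sign bin in Kb (horizontal axis), for bins beginning in A (left) and B (right). For bins from A, the values at 100 Kb are -0.58 and -0.68 for late from T16, and -0.11 and -0.17 for T16 alone. The contrasts differ: all bins with a T0 score between 0 and 1 stand at -0.35 in the former and 0.0573 in the latter.

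TamR was not used to choose the bins and is a measure that the E2 signs do not fix, although T0 enters both. In TamR the sign differed from T0 in 501 of 956 mixed-sign bins (52.4%, 49.2 to 55.6%). Over all autosomal bins it differed in 13.8%, and in the unchanged bins in 10.7% (10.3 to 11.1%). By class, the share was 45.6% (41.2 to 49.96%) in transient bins, 55.9% (49.3 to 62.3%) in late bins and 63.3% (57.1 to 69.2%) in recrossing bins. In late and recrossing bins, a changed TamR bin has the compartment of T24. The median absolute score of the mixed-sign bins was 1.87 in TamR and 0.546 in T0, and in bins chosen by an absolute T0 score under 1 it was 1.94 and 0.521. Over all autosomal bins it was 4.87 and 4.93.

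Over all autosomal bins, the share that differed in TamR fell with distance from the border at T0. It was 49.1% for an absolute T0 score up to 0.5, 41.3% from 0.5 to 1, 32.1% from 1 to 2 and 7.19% beyond 2. Among bins with an absolute T0 score up to 0.5, TamR differed in 51.9% of mixed-sign bins (47.3 to 56.5%) and in 33.7% of unchanged bins (29.7 to 38.0%). Between 0.5 and 1 the shares were 55.7% (50.3 to 60.9%) and 32.6% (29.6 to 35.8%), and between 1 and 2 they were 48.1% (40.6 to 55.8%) and 29.6% (27.8 to 31.5%). The mixed-sign share was the higher in each range and did not fall steadily over them. These ranges match the bins in T0 score only, while the E2 scores chose the sets. Over all ranges, the smallest absolute E2 score had a median of 0.0889 in mixed-sign bins and 4.67 in unchanged bins. The excess is therefore not read as a result. Beyond 2, TamR differed in 5 of 13 mixed-sign bins and in 7.08% of unchanged bins. Bins that differed at T24 alone gave 54.3, 50.3 and 45.2% in the same ranges, inside the intervals of the mixed-sign bins. Bins that differed at T0 alone gave 70.3% (64.7 to 75.4%), 58.1% (47.6 to 68.0%) and 58.8% (36.0 to 78.4%), the first of which lay above the interval of the mixed-sign bins.

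**Figure D4:**
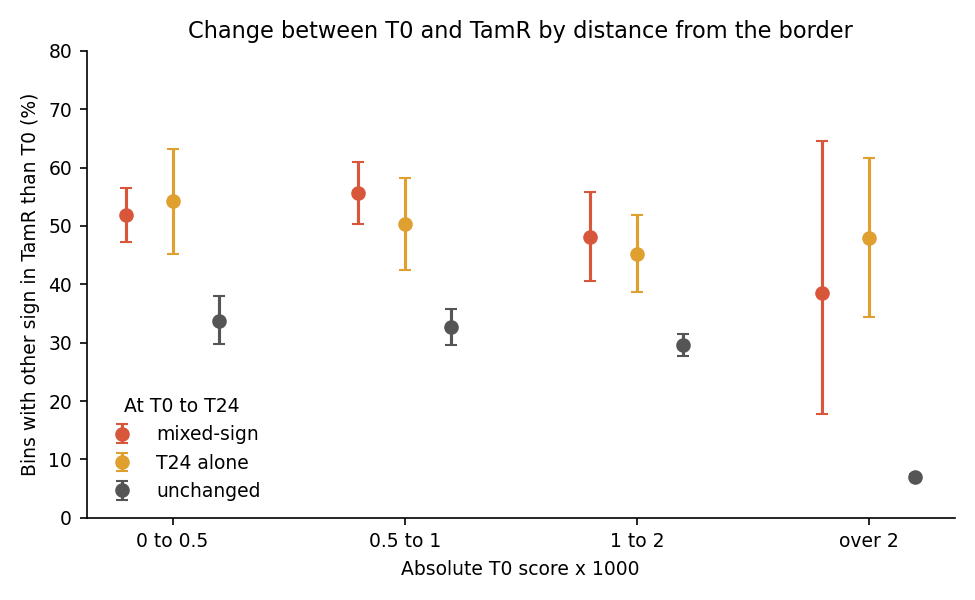
Share of bins whose sign differs between T0 and TamR (vertical axis, %; bars are 95% Wilson intervals) by absolute T0 score multiplied by 1000 (horizontal axis), for mixed-sign bins, T24-alone bins and unchanged bins. Up to a T0 score of 2, mixed-sign bins lie between 48.1 and 55.7% and unchanged bins between 29.6 and 33.7%. The ranges match the sets in T0 score only.

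By timing, the share was 47.3% (34.7 to 60.2%) for T1 alone, 45.6% (35.7 to 55.8%) for T4 alone and 34.8% (26.7 to 43.9%) for T16 alone. These intervals overlap. Of bins that differed at T16 alone, it was 37.5% (22.9 to 54.7%) of the 32 from A and 33.7% (24.5 to 44.4%) of the 83 from B. The latter had a median T0 score of -0.930, against -0.437 for T1 alone and -0.533 for T4 alone from B. Bins late from T4 gave 57.4% (45.5 to 68.4%) and bins late from T16 55.3% (47.3 to 62.9%). In recrossing bins it was 65.6% (58.7 to 72.0%) of those from A and 54.2% (40.3 to 67.4%) of those from B. Late bins lying inside A, that is with unchanged A bins on both sides, differed in TamR in 30 of 41 cases (73.2%, 58.1 to 84.3%). Late bins at a border between A and B differed in 62 of 122 (50.8%, 42.1 to 59.5%), and late bins inside B in 21 of 44 (47.7%, 33.8 to 62.1%). Inside A, transient bins differed in 42 of 80 (52.5%, 41.7 to 63.1%) and recrossing bins in 18 of 30 (60%, 42.3 to 75.4%). All of these intervals by flank overlap. Of the late bins, 13 of the 41 inside A and 82 of the 122 at a border began in A.

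Most runs of mixed-sign bins were a single bin long. The 956 bins formed 644 runs of adjacent bins, of which 458 held 1 bin (71.1%), 115 were 2 bins long and the longest was 12. The flanks of a run were read from the nearest unchanged bins within 5 bins on each side. Of 604 runs with both flanks, 368 lay between A and B (60.9%, 57.0 to 64.7%), 84 inside A (13.9%) and 152 inside B (25.2%). Runs that differed at T24 alone were at a border in 60.7% of cases, and runs that differed at T0 alone in 39.1% (33.5 to 44.9%).

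Along chromosomes the bins kept away from the ends to about the extent that B does. Within 5 Mb of a chromosome end stood 4.39% of mixed-sign bins, 7.16% of all bins, 11.4% of bins always in A and 3.98% of bins always in B. Within 5 Mb of an assembly gap of at least 1 Mb stood 6.49% and 6.59% of mixed-sign and all bins. Chromosome 2 had the most, with 106 bins, and the share was highest on chromosome 7 (4.97%, 3.99 to 6.18%). It was lowest on chromosome 17 with 4 of 768 bins (0.521%, 0.203 to 1.33%) and on chromosome 22 with 4 of 336 (1.19%, 0.464 to 3.02%). Both are chromosomes mostly in A, with 76.7% and 91.7% of their bins there at T0.

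The sequence of the mixed-sign bins lay between those of the compartments, and in GC content and gene starts it was close to that of all bins. Their median GC content was 39.8% (quartiles 37.9 and 42.3%), against 43.7% in bins always in A, 37.5% in bins always in B and 39.9% in all bins. A protein-coding gene started in 36.7% of them (33.7 to 39.8%), against 59.6% in A, 19.6% in B and 38.1% of all bins. A protein-coding gene body overlapped 73.4% (70.5 to 76.1%), against 86.6% and 48.6%, and 66.6% of all bins. CpG density had a median of 8.09 per Kb, close to the 8.20 of all bins.

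With the border at 0, late bins overlapped genes more often than transient bins, most clearly those that began in A. A protein-coding gene overlapped 84.1% of late bins (78.7 to 88.3%) and 69.2% of transient bins (65.0 to 73.1%), and with any chromosome left out the difference stayed between 13.9 and 16.4 percentage points. The highest share was in late bins that began in A, at 90.6% (84.5 to 94.4%). It was 73.9% in all bins with a T0 score between 0 and 1 and 86.6% in bins always in A. Among bins from B it was 73.2% (62.7 to 81.6%) in late and 68.0% (63.4 to 72.3%) in transient bins. Recrossing bins had 69.3% (62.4 to 75.4%) from A and 85.4% (72.8 to 92.8%) from B. With the border at each library's median the shares were 70.0% for late and 72.3% for transient bins, so the difference did not hold there, and with matched ranks they were 81.1% and 71.0%. A gene started in 43.6% (37.2 to 50.2%) of late and 33.5% (29.5 to 37.7%) of transient bins. These shares were 52.2 and 38.8% among bins from A, and 29.3 and 32.5% among bins from B.

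Of the 18856 protein-coding genes that start in a scored autosomal bin, 515 start in a mixed-sign bin (2.73%). The 8 gene lists of estrogen and breast cancer biology contributed a single gene or none each. These were 1 of 40 estrogen targets (AREG), 1 of 34 luminal and hormone receptor factors (NR3C1), 1 of 25 estrogen receptor coregulators (TRIM24), 1 of 45 growth factor ligands and receptors (ERBB4), 1 of 28 genes of the epithelial-mesenchymal transition (ZEB1) and 1 of 26 genes of chromatin architecture (NCAPD3). None of 26 genes of the PI3K pathway and none of 31 genes of G1 and S phase were among them. Of all 18856 genes, 17826 start in unchanged bins and 14182 of these in bins always in A. Always in A were 36 of the 40 estrogen targets, 23 of the 34 luminal factors, 20 of the 25 coregulators, 27 of the 45 growth factor genes, 22 of the 26 PI3K genes, 21 of the 31 cell cycle genes, 18 of the 28 genes of the transition and 21 of the 26 architecture genes.

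AREG encodes amphiregulin, a ligand of the epidermal growth factor receptor whose transcription responds to estrogen. Its start (gene at chr4:75310853-75320722) lay in a BAAAB bin with scores of -0.358, 0.323, 0.520, 0.174 and -0.492 from T0 to T24, and 5.49 in TamR. The visit to A at T1, T4 and T16 was shallow, and the TamR score was over 10 times as far from 0 as the highest parental score. AREGB, a separate entry of like symbol, starts in the adjoining bin (chr4:75400001-75500000), which was AAABA. That bin read 0.448, 0.0433, 0.433, -0.327 and 0.0879 from T0 to T24, and 3.70 in TamR. At T0, T16 and T24 it stood in the other compartment from the AREG bin.
ZEB1, a repressor of epithelial genes, started (chr10:31607424-31818742) in a BBAAA bin with -0.925, -0.865, 0.137, 0.676 and 0.791 from T0 to T24 and -0.338 in TamR. Its bin entered A at T4 and stayed, and was in B in TamR.

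NR3C1, the glucocorticoid receptor, started (chr5:142657496-142815077, minus strand) in an AAABB bin with 0.0528, 0.00942, 0.475, -0.301 and -0.509, and -0.792 in TamR. TRIM24, a coregulator of nuclear receptors, started (chr7:138145004-138274741) in an ABAAB bin with 1.60, -0.0887, 0.480, 0.404 and -0.272, and 0.101 in TamR. ERBB4, a receptor tyrosine kinase that binds neuregulins, started (chr2:212240442-213403565, minus strand) in an ABABB bin with 0.273, -0.213, 0.0691, -0.119 and -0.945, and -3.73 in TamR. ERBB4 was the only gene of these 3 with a TamR score beyond 1 from the border.
NCAPD3, a subunit of condensin II, started (chr11:134020008-134095398, minus strand) in an AAABA bin whose T16 score was -0.00215, next to its other scores of 0.202, 0.0249, 0.770 and 1.02, and -1.22 in TamR. Its sign at T16 rests on a value hardly different from 0.

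Among gene families, zinc finger genes (symbols beginning with ZNF) had 23 of 498 starts in mixed-sign bins (4.62%), olfactory receptors 12 of 403 (2.98%) and solute carriers 12 of 358 (3.35%). The protocadherins (63 genes), keratins (55) and HLA genes (19) had none. The share of all protein-coding genes was 2.73%, and families this small would hold few or none at that share. The ZNF count includes the entries ZNF670-ZNF695 and ZNF559-ZNF177, which join genes that are also counted singly. Genes of these families stand in clusters, so the starts are not independent of each other. Many of the ZNF genes lay on chromosome 19.

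Chromosome 19 had 12 mixed-sign bins of 557 (2.15%), and 7 of them were late, all from B to A at T16. The longest run of a single late pattern from B, 3 bins, was there, at chr19:8800001-9100000, inside A. ACTL9, an actin-like gene, the olfactory receptor OR2Z1, the zinc finger gene ZNF558 and MBD3L1 start in it, and MUC16, which encodes the mucin known as CA125, overlaps it. Its 3 bins averaged -1.58, -0.411, -1.17, 1.13 and 2.81 from T0 to T24, and 7.97 in TamR. The scores were thus positive in the last 2 parental libraries and higher still in TamR.

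Bins just beyond it also went from B at T0 to A at T24. At chr19:9300001-9400000, with the olfactory receptor genes OR7D4 and OR7E24, the pattern was BABBA, with -1.99, 0.00892, -1.28, -1.22 and 3.23 from T0 to T24 and 10.4 in TamR. At chr19:9400001-9500000, with ZNF699, ZNF559 and ZNF177, the scores were -1.53, -0.731, -0.518, 1.01 and 3.10, and 11.2 in TamR. At chr19:9500001-9600000, with ZNF266, they were -0.873, -0.304, -0.254, 1.32 and 2.29, and 10.9 in TamR. All these bins were in B at T0 and T4 and in A at T24. The first also had a T1 score just above 0 and was in B at T16, where the others were in A.

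More zinc finger genes lay in mixed-sign bins farther along the chromosome. The bin of ZNF681 at chr19:23900001-24000000 was BBBAA with -1.20, -0.940, -1.19, 0.651 and 1.92, and 2.05 in TamR. The bin at chr19:57700001-57800000, with ZNF264, ZNF805, ZNF460 and the meiotic kinase gene AURKC, was AABAA, with 0.156, 0.251, -0.558, 0.603 and 1.68, and 12.0 in TamR. The first kept its late compartment in TamR and the second was out of A at T4 alone. ZNF genes share sequence, and how reads from such repeats were assigned could affect these scores, which was not tested.

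The single bin with the greatest crossing depth, 1.78, was at chr22:18800001-18900000, where DGCR6 starts. It read -0.198, 1.35, 0.0238, -1.78 and 1.97 from T0 to T24, and 3.43 in TamR. No steady course was visible in it. No unchanged bin stood within 5 bins on at least 1 side, so its flanks are undefined. The other deep bins were the MUC16 bin at chr19:9000001-9100000 (depth 1.36), the OR7D4 bin (1.28), the ZNF681 bin (1.19) and a bin at chr5:107000001-107100000 (1.29). The last holds the start of EFNA5, an ephrin ligand, and read 1.34, -0.0399, 1.34, 0.559 and -1.29, and -0.910 in TamR.

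The runs of late bins out of A were shorter. Among the longest from T16, each 2 bins, the one of greatest depth was at chr1:197600001-197800000, where DENND1B, a regulator of membrane traffic, starts. Its means were 0.234, 0.266, 0.630, -0.240 and -1.30, and -3.21 in TamR. It lay inside B. Those from T4 were all single bins, and the deepest was at chr13:49600001-49700000 within FNDC3A, with 1.34, 0.806, -0.0176, -0.898 and -0.580 and 0.677 in TamR. TamR thus had the T24 compartment in the first and the T0 compartment in the second.

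Among the longest switches into A from T4, each 2 bins, the one of greatest depth was at chr12:101400001-101600000. ANO4, of the anoctamin family, and the monocarboxylate transporter gene SLC5A8 overlap it. Its means were -1.73, -0.285, 0.374, 0.380 and 0.542 in the parental libraries and -4.10 in TamR. It climbed from T0 to T24 and was far inside B in TamR. Runs of the same length and pattern at chr4:5600001-5800000 (5.31 and 6.08 in TamR) and chr5:32600001-32800000 (3.12 and 5.08) were in A in TamR. The recrossing region at chr3:23500001-23700000 within UBE2E2, a ubiquitin-conjugating enzyme gene, alternated, with 0.522, -0.787, 0.614, -0.473 and -0.905, and -2.23 in TamR.

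Among the transient regions, the longest with 1 pattern was at chr9:111100001-111500000 (BAAAB, 4 bins), where no protein-coding gene starts and an ERE of the first set lies. Its means were -0.218, 0.651, 0.567, 0.399 and -0.958, and 6.12 in TamR. At chr1:185700001-186000000, where the extracellular matrix gene HMCN1 starts, A was reached at T4 alone, with -0.576, -0.687, 0.378, -0.340 and -0.889, and -0.245 in TamR. At chr16:47400001-47600000, where PHKB, a subunit of phosphorylase kinase, and ITFG1 start, A was left at T16 alone, with 0.906, 0.669, 0.484, -0.201 and 0.492, and -0.453 in TamR. Each of these regions was back on its first side at T24.

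T1 alone took chr2:159300001-159400000, with the starts of CCDC148 and PKP4, out of A, with 0.224, -0.489, 0.727, 0.444 and 0.00408 and -1.73 in TamR. The gene-free bin at chr1:4000001-4100000 was in B at T4 and T16, with 0.374, 0.311, -1.02, -0.0230 and 1.32 and -2.16 in TamR. In the former the sign at T24 rests on a score next to 0, as the sign at T16 does in the latter.

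The longest stretch of mixed-sign bins of any pattern was at chr7:46000001-47200000, with 12 bins in 5 patterns, flanked by A on both sides. It was named after its values were seen, as were the 2 that follow. No protein-coding gene starts in it, and 2 EREs of the first set lie in it. Its means were -0.366, -0.297, 0.486, 0.389 and -1.54 from T0 to T24, with 0.192 in TamR. All 12 bins were below 0 at T24, between -0.932 and -2.14. At chr7:46500001-46800000, inside this stretch, A was reached at T16 alone, with -0.904, -0.671, -0.155, 0.249 and -1.75, and -1.12 in TamR.

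There were 2 stretches of 7 bins. At chr6:105800001-106500000, with the starts of PREP, a prolyl peptidase, and PRDM1, a transcriptional repressor that drives plasma cell differentiation, and with the autophagy gene ATG5 overlapping, the means were -0.414, 0.206, 0.591, -0.161 and -0.771, and 2.84 in TamR. At chr10:63000001-63700000, with the starts of TMEM26, CABCOCO1 and ARID5B, a DNA-binding protein gene, they were -0.755, 0.0563, 0.541, 0.0993 and -0.494, and 2.26 in TamR. In both, all 7 bins were in B at T0, in A at T4 and in A in TamR. The parental scores of these bins stayed within 1.3 of the border.

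**Figure D5:**
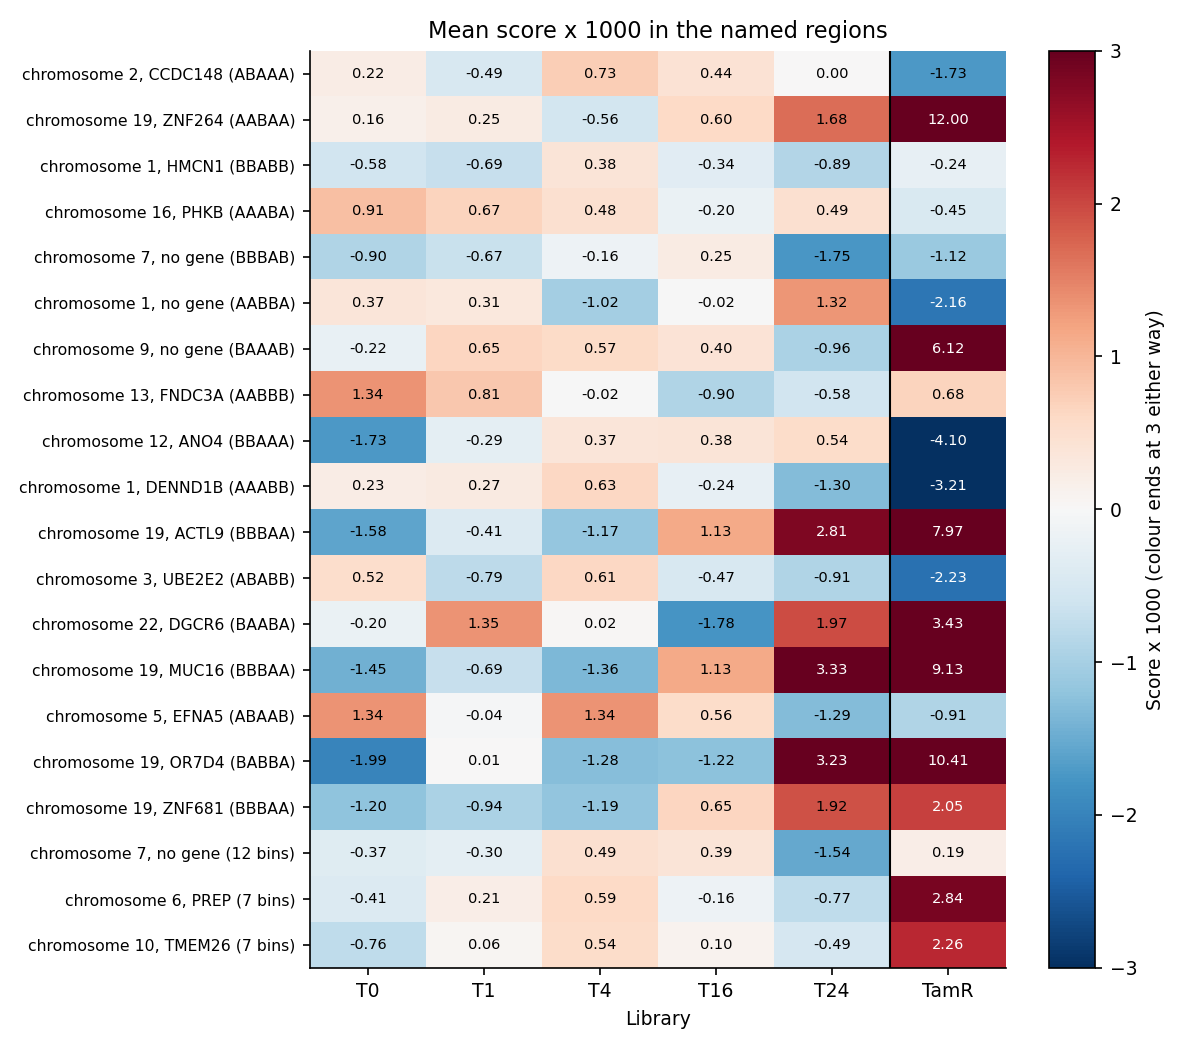
Mean score multiplied by 1000 in each named region (rows, with chromosome, a gene and the pattern) in the 6 libraries (columns); red is A, blue is B, and the printed numbers are the scores. The chromosome 19 regions are red at T24 and reach 7.97 to 12.0 in TamR except for ZNF681 with 2.05, while the other regions stay within 2 of the border from T0 to T24.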

How the data were processed

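The authors aligned TCC reads to hg19, corrected the contact matrix iteratively, removed contacts within chromosomes and took the first eigenvector with HiCLib. The deposited value is a score per 100 Kb bin for each of 6 libraries, and 0 marks a bin without a score. Scores were multiplied by 1000, and signs were used as deposited. No contact counts are in these files, and the depth behind a score is unknown. The mixed-sign bins and the 8 gene lists were chosen with earlier results of these data known. Sequence was read from GRCh37, whose coordinates are those of hg19, and genes from GENCODE 44 mapped to it. Named regions were, for each of 7 pattern groups and each T0 compartment, the longest run of 1 pattern (ties by mean depth), the 5 single bins of greatest depth, at most 5 genes starting in each, every list gene in a mixed-sign bin and the families named above; 1 region chosen by this rule is not reported here. Shares have 95% Wilson intervals. Python 3.11.15, numpy 2.4.6, pandas 2.3.3, scipy 1.17.1 and matplotlib 3.10.9 were used, and the classification was tested on simulated scores. The alternatives were other borders, scalings, filters, bin sizes and sets of libraries, and those on the T0 compartment, on gene overlap and on shared bins were added after the data were seen.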

Additional observations from a re-analysis of the deposited data

How the results depend on the processing

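The number of mixed-sign bins stayed within 1.5 times of 956 except in 3 settings: 196 when the highest and lowest E2 scores had to lie beyond the 5th percentile of absolute score in their libraries, 136 with means over 500 Kb bins, which are larger and fewer, and 0 of 22007 when a bin had to be at or over the 10th percentile of absolute score in each parental library. The last leaves no shares to compute, and means that no mixed-sign bin was clear of the border in all 5 parental libraries. Among the 196, the transient share was 42.9%, the late share 30.6% and the share changed between T0 and TamR 57.1%. The share of runs at a border between A and B was 70.4% with a running mean over 3 bins and 54.6% with 500 Kb bins. The causes of these moves were not tested. With T1, T4, T16 or T24 left out, 756, 734, 658 and 858 bins were of mixed sign, as fewer libraries can disagree. No paired analysis was possible because there is a single library of each condition.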
